A study of Mus musculus with 4 samples.

Results

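The genes described here mark the embryonic macrophage, the first tissue-resident phagocyte of the mouse embryo. They are *Csf1r*, *C1qa*, *C1qb*, *C1qc*, *Mrc1*, *Cx3cr1*, *Fcer1g*, *Tyrobp*, *Aif1* and *Lyz2*, and were chosen by gene symbol, all 10 of them being found among the 46983 genes of the tables. RNA-seq was carried out on larynx tissue at E10.5 (32 to 35 somites) from embryos lacking *Shh* and from Swiss Webster WT embryos. Each group had 2 libraries (pools 1 and 2 for *Shh*-/-, pools 4 and 6 for WT), and each library was made from 3 pooled larynxes. The mutants carry the germline Shhtm1amc null allele, kept on a Swiss Webster background, so functional *Shh* is missing from every cell type and not from the epithelium alone. The sample labels write the mutant genotype as Shh+/-, whereas the series' design text writes it as *Shh*-/-, the name used here. The labels do not say whether the embryos of a pool shared a litter, so p-values measure the spread between these pools.

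Macrophages of this stage arise mainly from the yolk sac, enter embryonic tissues before definitive blood formation takes over, and engulf dying cells. Their survival depends on the receptor CSF1R and on the transcription factor PU.1, which is encoded by *Spi1*. They secrete complement C1q and carry pattern and Fc receptors that signal through small adaptor proteins with an ITAM, a paired tyrosine motif that recruits the kinase SYK.

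*Shh* itself measured 10.4 and 10.8 TPM (a length-corrected share of a library's RNA) in *Shh*-/- pools and 23.7 and 42.1 TPM in WT pools, and *Ptch1*, a direct HH target, 12.9 and 13.8 against 57.8 and 55.1 TPM. The limma test gave an adjusted p of 0.0895 for *Shh* and of 0.0319 for *Ptch1*. The libraries held 1.37 to 3.13 gigabases of aligned sequence, the least in *Shh*-/- pool 1, and their RNA integrity numbers were 7.7 to 9.0. Of the larynx markers, *Nkx2-1* and *Epcam* (foregut epithelium) and *Pdgfra* (mesenchyme) were detected in all 4 pools. *Nkx2-1* was at 6.16 and 3.61 TPM in *Shh*-/- and 15.9 and 17.9 TPM in WT pools (log2 fold change -1.64, limma adjusted p = 0.0715). *Epcam* was at 123 and 101 TPM in *Shh*-/- and 90.3 and 86.4 TPM in WT pools (log2 fold change 0.33, limma adjusted p = 0.205).

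PU.1 and its relatives bind DNA at a purine-rich GGAA core. For *Csf1r*, *C1qa* and *Tyrobp* no promoter window was searched. RefSeq promoter windows (GRCm38.p6, from 250 bases before to 50 after each annotated start) were used for the other 7 of the 10 genes. They were searched on both strands for GAGGAA, which reads TTCCTC on the other strand. A match was present in 4 of these 7 windows, against 28.3% of the 32851 promoter windows of all genes. The 7 windows do not cover the whole set, so no conclusion is drawn from this comparison. The stretch around a match is given for each of the 4 genes, since these letters are a feature that the choice of genes did not use. Each line runs 5′ to 3′ on the strand of its gene, with the matched letters in capitals, and for *Mrc1*, which had 3 matches, the one nearest the start is given.
C1qb (chr4:136886213-136886242, minus strand): gcagcaggatggGAGGAAcagaggggtgat
C1qc (chr4:136893090-136893119, minus strand): gacggcagacacTTCCTCattttggcacac
Mrc1 (chr2:14229367-14229396, plus strand): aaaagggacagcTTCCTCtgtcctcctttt
Aif1 (chr17:35176042-35176071, minus strand): ataggcacccagTTCCTCcatcctattgtt
Counted from the RefSeq start, the match began 30 bases upstream in *C1qb*, 193 in *C1qc*, 35 in *Mrc1* and 7 in *Aif1*. These starts differ from the ends of the gene spans in the deposited tables, which are the coordinates given with each gene, and the *Aif1* match lies inside its deposited span. A match is a description of the letters and was not tested as a binding site.

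Transcripts of all 10 genes were present at low levels in E10.5 larynx. Mean TPM over the 4 pools ran from 1.47 for *Aif1* to 4.60 for *C1qb*, and summed over the 10 genes the RNA was at 31.3 and 25.6 TPM in *Shh*-/- pools, compared with 18.2 and 25.1 TPM in WT pools. The summed level of *Shh*-/- pools was 28.5 ± 4.06 TPM (SD, n = 2) and that of WT pools 21.7 ± 4.89 TPM (SD, n = 2). Both *Shh*-/- pools lay above both WT pools, but *Shh*-/- pool 2 did so by less than the gap between the WT pools. In bulk tissue, a difference in the number of cells of a type and a difference in RNA per cell cannot be told apart. All 10 genes had a mean TPM of at least 1 and were tested, with limma on log2(TPM + 1) across 16972 genes and Benjamini-Hochberg adjustment. None of the 10 differed between *Shh*-/- and WT at an adjusted p under 0.05. This level was reached by 0.725% of all tested genes and 0.609% of those with a mean TPM from 1 to 5. An unadjusted p under 0.05 was found for 0 of the 10, against 24.8% of all tested genes. That last share was not determined for genes with a mean TPM from 1 to 5 alone. The lowest adjusted p of the 10 was 0.274, for *Lyz2*.

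**Figure D1:**
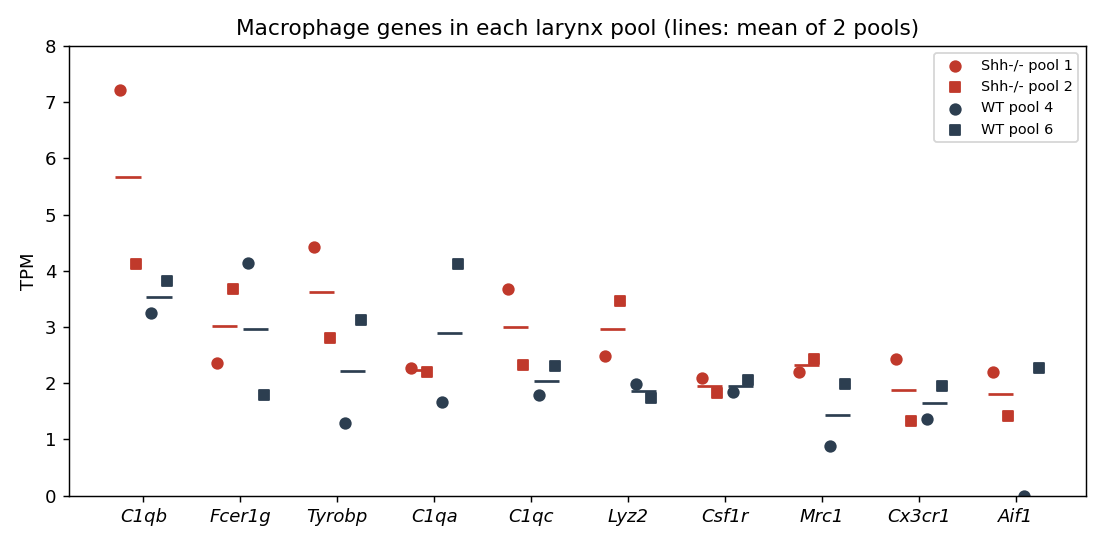
TPM of each macrophage gene (vertical axis) in the 2 *Shh*-/- pools (red) and the 2 WT pools (dark blue), with genes ordered by mean TPM and a line at the mean of each group, left out for WT *Aif1*, which is listed at 0 in 1 pool. *Csf1r* differs least between pools, whereas *C1qb* ranges from 3.25 to 7.21 TPM.

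In order of mean level, *C1qb* was followed by *Fcer1g*, *Tyrobp*, *C1qa*, *C1qc*, *Lyz2*, *Csf1r*, *Mrc1*, *Cx3cr1* and *Aif1*. Between neighbors in this order, the mean difference in log2(TPM + 1) within a library was smaller than its SD over the 4 libraries for 9 of 9 pairs. *C1qb* was the highest of the 10 genes in both *Shh*-/- pools, whereas *Fcer1g* was highest in WT pool 4 and *C1qa* in WT pool 6. The order therefore separates neighbors no further than the pools vary.

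*Csf1r* encodes the receptor for CSF1 and IL34 and lies on chromosome 18 of mm10 from 61105572 to 61132149. It measured 2.09 and 1.82 TPM in *Shh*-/- pools and 1.85 and 2.06 TPM in WT pools, so the groups overlapped fully and no pool stood apart. The group means were 1.96 ± 0.193 TPM (SD, n = 2) in *Shh*-/- pools, against 1.96 ± 0.153 TPM (SD, n = 2) for WT. The log2 fold change of *Csf1r* was 0.00 with a 95% confidence interval from -0.53 to 0.53, and the limma adjusted p was 0.9996. *Hmgxb3*, a more abundant gene at a mean of 15.2 TPM, overlaps *Csf1r* on the opposite strand. The library kit preserves strand, and the setting used in counting is not given in the sources used here.

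The C1q genes encode the A, B and C chains that assemble in equal numbers into the recognition subunit of the classical complement pathway. They lie side by side on the minus strand of chromosome 4, *C1qb* from 136880129 to 136886187, *C1qc* from 136889804 to 136893065 and *C1qa* from 136895917 to 136898803, within 18675 bp. *C1qb* RNA was at 7.21 and 4.12 TPM in *Shh*-/- pools, compared with 3.25 and 3.83 TPM in WT pools. The level in *Shh*-/- pool 1, the shallowest library, was the highest of any of the 10 genes in any pool, and both *Shh*-/- pools exceeded both WT pools. The group means differed by a factor of 1.60 (log2 fold change 0.52, standard error 0.28, 95% confidence interval -0.21 to 1.24, limma adjusted p = 0.31). Without *Shh*-/- pool 1 the log2 fold change of *C1qb* was 0.18, and without *Shh*-/- pool 2 it was 0.86. *C1qc* was at 3.67 and 2.33 TPM in *Shh*-/- and at 1.78 and 2.30 TPM in WT, and the groups were separated only by the small step from 2.30 to 2.33 TPM. Its log2 fold change was 0.38 (standard error 0.26, limma adjusted p = 0.394), with 0.13 and 0.62 when the same pools were left out.

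*C1qa* was the chain with the widest spread between WT pools. It was found at 2.27 and 2.20 TPM in *Shh*-/- pools, compared with 1.67 and 4.12 TPM in WT pools, so that the WT pools lay on either side of both mutant pools. Its log2 fold change of -0.19 (standard error 0.35, limma adjusted p = 0.753) was the only negative one among the 10 genes, and it became 0.28 without WT pool 6. *C1qa* has a single annotated transcript of 1040 nt, over which the deposited coverage gives whole numbers of aligned bases to within 0.01. These correspond to about 21 and 47 reads of 75 nt in *Shh*-/- pools 1 and 2 and to about 33 and 85 reads in WT pools 4 and 6. The exact 95% Poisson intervals of the WT pools, 22.7 to 46.3 and 67.9 to 105 reads, did not overlap, and they cover counting error only. As a share of the TPM of the 3 chains, *C1qa* made up 17.3 and 25.4% in *Shh*-/- pools and 24.9 and 40.2% in WT pools. The share of *C1qb* was 54.8 and 47.7% in *Shh*-/- and 48.5 and 37.4% in WT, while that of *C1qc* stayed between 22.4 and 27.9%.

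**Figure D2:**
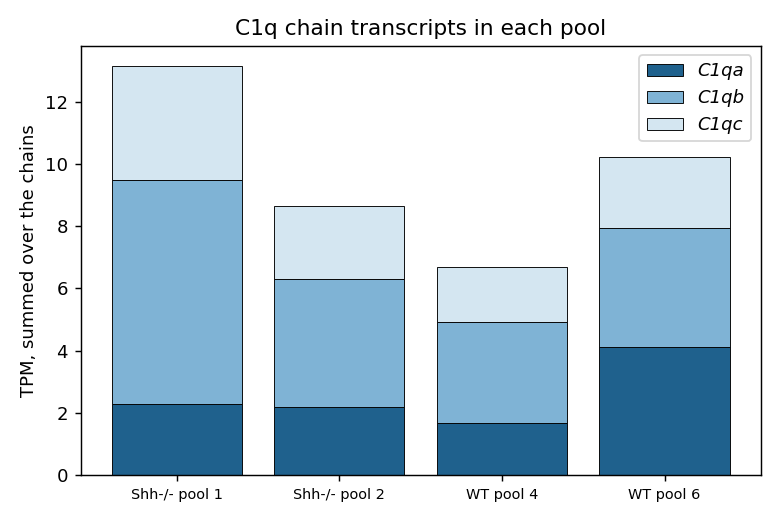
Stacked TPM of *C1qa*, *C1qb* and *C1qc* (vertical axis) in each of the 4 pools. The total was 13.1 and 8.64 TPM in *Shh*-/- pools and 6.70 and 10.2 TPM in WT pools, and the groups overlap.

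*Tyrobp* and *Fcer1g* encode DAP12 and the Fc receptor gamma chain, the ITAM adaptors through which macrophage receptors activate SYK. *Tyrobp* (chromosome 7, 30413788 to 30417577) was at 4.42 and 2.81 TPM in *Shh*-/- pools, compared with 1.29 and 3.13 TPM in WT pools. WT pool 6 lay between the mutant pools, so the groups overlapped, and the log2 fold change was 0.56 (standard error 0.37, 95% confidence interval -0.38 to 1.51, limma adjusted p = 0.377). Without WT pool 4 it was 0.14, and without WT pool 6 it was 0.99. *Fcer1g* (chromosome 1, 171229572 to 171234365) measured 2.36 and 3.68 TPM in *Shh*-/- and 4.14 and 1.79 TPM in WT, with the highest and the lowest value both in WT. The log2 fold change of *Fcer1g* was 0.07 (standard error 0.37, limma adjusted p = 0.924), and its sign depended on single pools, since it was -0.38 without WT pool 6 and -0.17 without *Shh*-/- pool 2.

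Of the remaining surface receptors, *Mrc1* encodes the mannose receptor CD206, a marker of fetal tissue macrophages, and *Cx3cr1* the receptor for fractalkine. *Mrc1* (chromosome 2, 14229392 to 14332057) was at 2.21 and 2.43 TPM in *Shh*-/- pools, compared with 0.879 and 1.98 TPM in WT pools. The mutant pools were close together and above both WT pools, which differed from each other by a factor of 2.25. Its log2 fold change was 0.49 (standard error 0.29, 95% confidence interval -0.27 to 1.24, limma adjusted p = 0.348), and it was 0.15 without WT pool 4 and 0.82 without WT pool 6. *Cx3cr1* (chromosome 9, 119901616 to 120068283) measured 2.43 and 1.33 TPM in *Shh*-/- and 1.37 and 1.94 TPM in WT. Its mutant pools lay on either side of both WT pools, and its log2 fold change of 0.10 (standard error 0.29, limma adjusted p = 0.849) became -0.18 without *Shh*-/- pool 1 and -0.06 without WT pool 4. The listed span of *Cx3cr1* takes in 5 other genes, 3 of them on the same strand, among them *Gorasp1* at a mean of 14.4 TPM, while *Wdr48*, on the opposite strand, is at a mean of 60.7 TPM.

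*Lyz2*, which encodes the macrophage lysozyme, and *Aif1*, which encodes the actin-binding protein IBA1, complete the set. *Lyz2* (chromosome 10, 117277334 to 117282274) was at 2.48 and 3.46 TPM in *Shh*-/- pools, compared with 1.99 and 1.73 TPM in WT pools. On the log2(TPM + 1) scale, the difference between its group means exceeded the gaps between pools, 0.36 in *Shh*-/- and 0.13 in WT. The share of all tested genes for which this held was not determined, so it does not set *Lyz2* apart. The log2 fold change was 0.46 (standard error 0.23, 95% confidence interval -0.12 to 1.05, limma adjusted p = 0.274), and leaving out any 1 pool gave 0.28 to 0.64. *Lyz1*, a close paralog with which *Lyz2* can share reads, was at 0.226 and 0.188 TPM in *Shh*-/- pools and is listed at 0 in both WT pools.

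*Aif1* (chromosome 17, 35170991 to 35176068) was at 2.20 and 1.43 TPM in *Shh*-/- pools, at 2.26 TPM in WT pool 6, and is listed at 0 in WT pool 4. The 37 genes of the mitochondrial genome have a 0 as well, but they have it throughout the pools, whereas *Aif1* has it in WT pool 4 alone. Whether the 0 of *Aif1* reflects absent RNA or a value that could not be estimated was not tested. With that 0 in the fit, the log2 fold change of *Aif1* was 0.62 with a standard error of 0.60, the largest of the 10, and a limma adjusted p of 0.533. Without WT pool 4 the log2 fold change was -0.23, the opposite direction, and without WT pool 6 it was 1.48. With a pseudocount of 0.1 in place of 1 it was 1.95.

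In all, 9 of the 10 genes had a positive log2 fold change and 1 a negative one, with a median of 0.42, against 58.3% positive and a median of 0.08 over all tested genes. The groups did not overlap, with *Shh*-/- higher, for 4 of the 10 (*C1qb*, *C1qc*, *Mrc1* and *Lyz2*). Over all tested genes this was so for 38% of genes, and for 34% of those with a mean TPM from 1 to 5, the range of all 10 genes. No gene of the 10 had both *Shh*-/- pools below both WT pools, a pattern shown by 22.7% of all tested genes and by 19.3% of those with a mean TPM from 1 to 5. Without WT pool 4, 6 of the 10 genes were positive with a median of 0.15, and without *Shh*-/- pool 1, 7 were positive with a median of 0.24. Rescaling moved the signs of the smallest differences. After median centring, which lowered the log2 fold change of every gene by 0.13, 6 of the 10 were positive and 4 negative (median 0.29), and quantile normalization gave the same split.

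**Figure D3:**
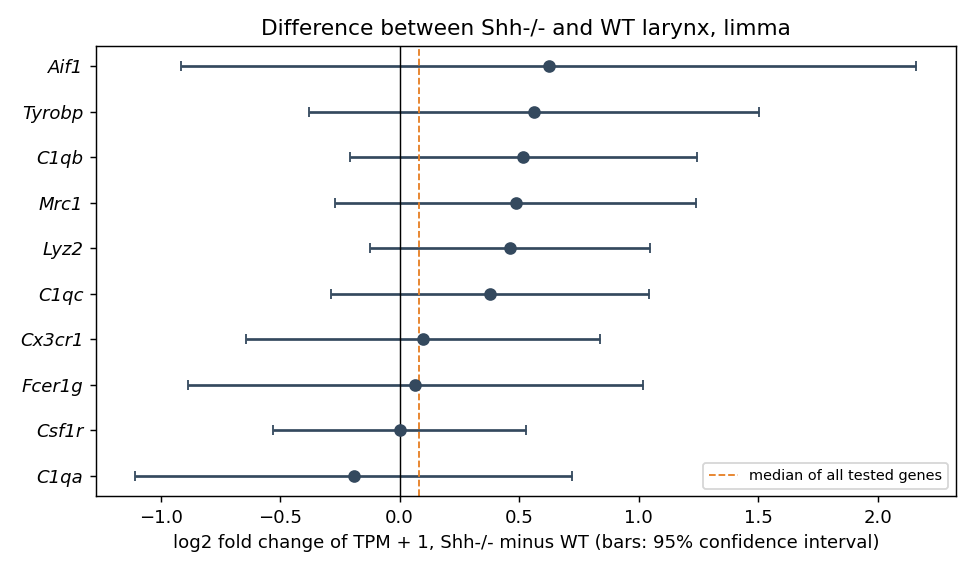
Log2 fold change of TPM + 1, *Shh*-/- minus WT (horizontal axis), of each macrophage gene, with its 95% confidence interval from limma and the median of all tested genes as a dashed line. Every interval includes 0, and the narrowest, that of *Csf1r*, runs from -0.53 to 0.53.

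**Figure D4:**
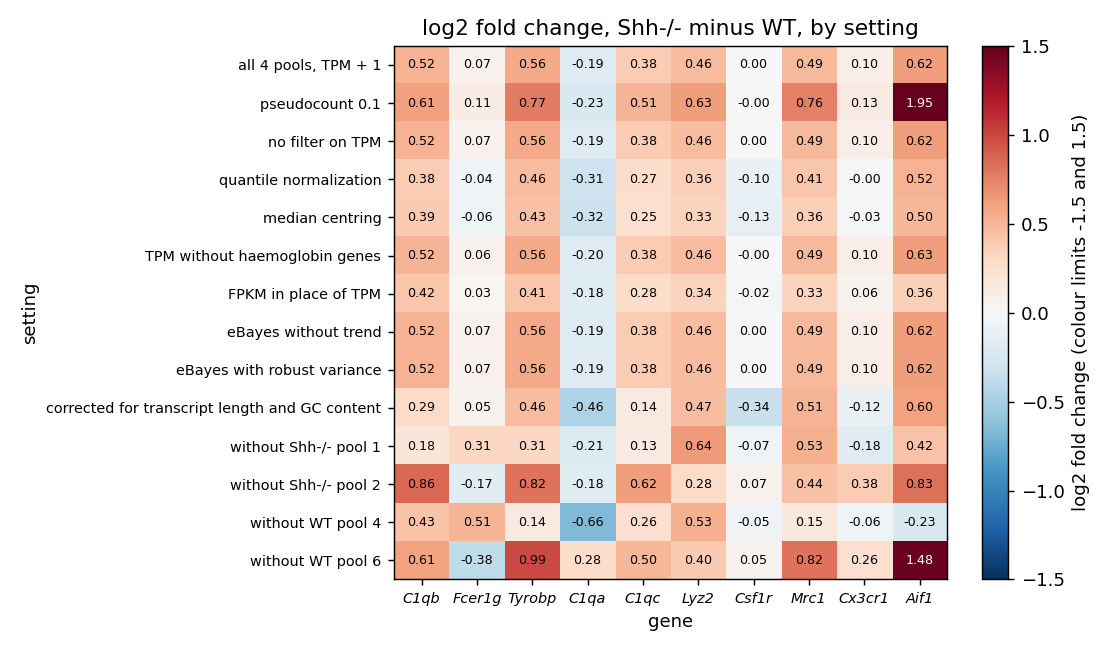
Log2 fold change, *Shh*-/- minus WT, of each macrophage gene (columns) under each setting that could be fitted (rows), with the value printed in each cell. *Lyz2*, *C1qb*, *C1qc*, *Mrc1* and *Tyrobp* are positive in every row, whereas the other genes change sign in at least 1 row.

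Genes related to macrophages, many of them also used by other cells, were followed through 7 further lists of 68 genes. Of their entries, 39 had a mean TPM of at least 1, and 13 of these were genes for dead-cell clearance. Among the 39, 30 had a positive and 9 a negative log2 fold change (median 0.30), against 58.3% positive (median 0.08) over all tested genes. An adjusted p of 0.05 was passed by 1 of the 39, as higher in *Shh*-/-, where 0.56% of all tested genes passed.

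**Figure D5:**
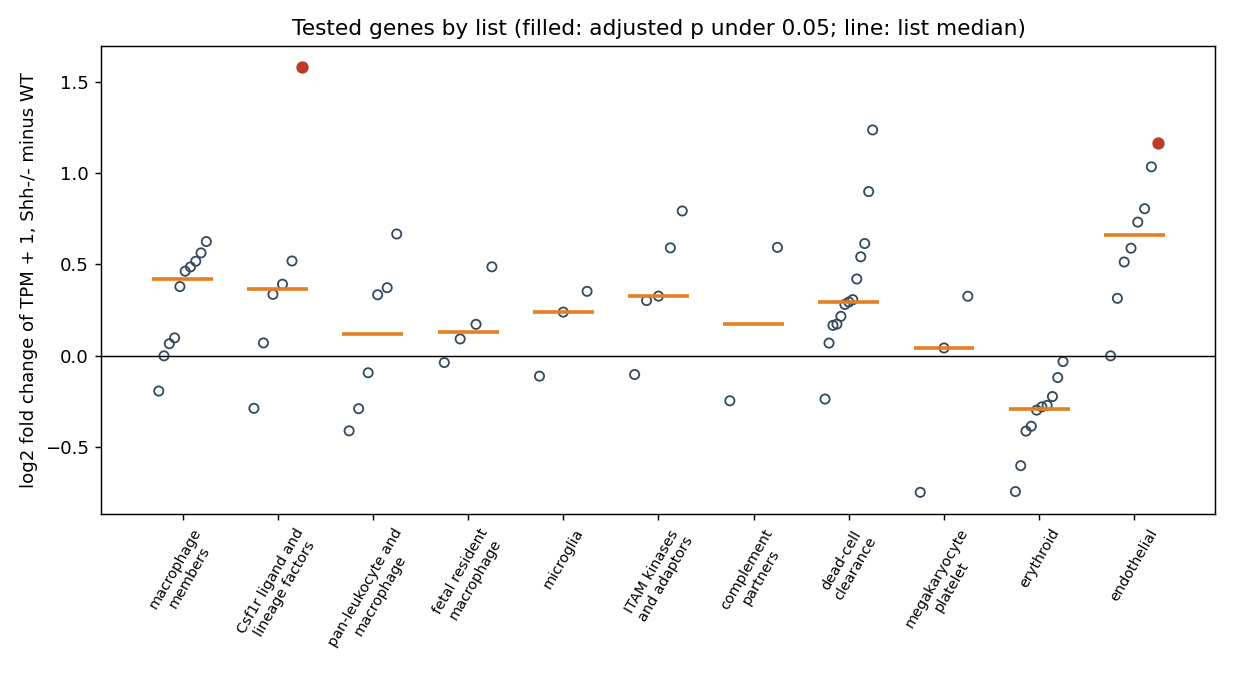
Log2 fold change of TPM + 1, *Shh*-/- minus WT (vertical axis), of the tested genes of each list, with filled red points for an adjusted p under 0.05 and an orange line at each list's median. Among the macrophage lists 1 point is filled, the erythroid points all lie below 0 and the endothelial points at or above it.

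Among the ligands and lineage factors, 6 of 9 were tested, 5 with a positive log2 fold change. *Csf1*, a ligand of CSF1R, was at 5.50 and 3.97 TPM in *Shh*-/- and at 3.42 and 3.24 TPM in WT pools (a log2 fold change of 0.39, limma adjusted p = 0.311). The other ligand gene, *Il34*, was listed at 0 in 3 pools and at 0.107 TPM in *Shh*-/- pool 2. *Spi1* itself stayed under the filter, at 0.879 and 1.34 TPM in *Shh*-/- and at 0.484 and 1.26 TPM in WT, and *Irf8*, a myeloid transcription factor, had a log2 fold change of 0.34 (limma adjusted p = 0.348).

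General leukocyte and macrophage markers were sparse. Of 15 such genes, 1 of them (*Itgam*) listed under 2 gene IDs, 6 were tested, with 3 positive, 3 negative and none passing. *Ptprc*, which encodes the pan-leukocyte antigen CD45, ranged from 0.132 to 0.440 TPM over the 4 pools and *Adgre1*, which encodes F4/80, from 0.0934 to 0.262 TPM, both under the filter. *Laptm5*, a lysosomal protein gene of leukocytes, was at 7.48 and 7.19 TPM in *Shh*-/- and at 4.49 and 4.03 TPM in WT pools (a log2 fold change of 0.67, standard error 0.17, limma adjusted p = 0.123). *Cd68*, a lysosomal marker of macrophages, and *Coro1a*, a leukocyte actin regulator gene, had log2 fold changes of 0.37 and 0.33 (limma adjusted p = 0.41 and 0.311). The negative values were those of *Fcgr3*, an Fc receptor gene, at -0.41, *Cd14*, a lipopolysaccharide co-receptor gene, at -0.29, and *Lcp1*, an actin-bundling protein gene of leukocytes, at -0.09 (limma adjusted p = 0.634, 0.452 and 0.87). For *Cd14* both *Shh*-/- pools, at 0.943 and 0.857 TPM, were below the WT pools, at 1.501 and 1.15 TPM.

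Of 8 markers of fetal resident macrophages 4 were tested, 3 with a positive log2 fold change and none passing. *Lyve1*, *F13a1* and *Folr2* had log2 fold changes of 0.09, 0.17 and 0.49 with limma adjusted p of 0.845, 0.757 and 0.264. *Timd4*, *Cd163* and *Ms4a7* were listed at 0 in every pool. *Pf4* was more abundant, at 16.04 and 22.7 TPM in *Shh*-/- and at 17.7 and 21.7 TPM in WT with overlapping groups, and is also a platelet gene.

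Of 6 microglia markers 3 were tested. None passed, and *Tmem119* and *Sall1*, both also known from cells other than macrophages, were far above the macrophage genes, the lowest value of either being 13.5 TPM (*Sall1* in WT pool 6). *P2ry12*, a purine receptor gene of microglia, lay between 0.215 and 0.642 TPM.

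Downstream of the ITAM adaptors, 5 of 9 kinase and adaptor genes were tested, 4 with a positive log2 fold change and none passing. *Syk* had a log2 fold change of 0.30 and *Plcg2*, its phospholipase effector, one of 0.59 (limma adjusted p = 0.357 and 0.153).

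Of 8 further complement genes 2 were tested, 1 with a positive and 1 with a negative log2 fold change, and none passed. The proteases that act with C1q were low. *C1ra* was at 0.104 TPM or less in every pool. *C1s1* was at 1.504 and 0.889 TPM in *Shh*-/- pools, listed at 0 in WT pool 4 and at 0.0512 TPM in WT pool 6. *Serping1*, which encodes the C1 inhibitor, was the most abundant gene of this list at 42.8 and 53.8 TPM in *Shh*-/- and 30.4 and 32.5 TPM in WT pools (a log2 fold change of 0.59, standard error 0.15, limma adjusted p = 0.124). The other tested gene was *C2*, a complement protease, with a log2 fold change of -0.25 (limma adjusted p = 0.83). *C4b*, which encodes a substrate of the C1 complex, stayed under the filter at 0.421 and 0.897 TPM in *Shh*-/- and 1.29 and 1.18 TPM in WT, with no overlap between groups.

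Genes for the recognition and uptake of dead cells, many of which other cells of the tissue also use, made up a further list. All 13 were tested, 12 with a positive and 1 with a negative log2 fold change (median 0.29), and none passed. *Gas6*, a bridge between phosphatidylserine and the TAM receptors, was at 7.71 and 5.51 TPM in *Shh*-/- and at 2.12 and 2.28 TPM in WT pools (a log2 fold change of 1.24, standard error 0.22, limma adjusted p = 0.0845). *Itgb5*, an integrin subunit gene, had the lowest adjusted p of the list (log2 fold change 0.90, limma adjusted p = 0.0602). The receptor genes *Mertk*, *Axl* and *Tyro3* had log2 fold changes of 0.42, 0.28 and 0.54 with limma adjusted p of 0.231, 0.234 and 0.155. *Cx3cl1*, the ligand of CX3CR1, was at 1.74 and 1.83 TPM in *Shh*-/- and at 1.40 and 1.11 TPM in WT pools (a log2 fold change of 0.31, limma adjusted p = 0.404).

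Markers of blood cells and vessels were examined beside the macrophage genes. All 10 erythroid genes were tested, 10 with a negative log2 fold change (median -0.29) and none passing. Their summed level was 10651 and 16259 TPM in *Shh*-/- pools and 14670 and 16871 TPM in WT pools, lowest in *Shh*-/- pool 1. All 8 endothelial genes had a log2 fold change of 0 or above (median 0.66), and *Tie1*, an endothelial receptor kinase gene, passed at 38.9 and 43.2 TPM in *Shh*-/- against 18.5 and 16.9 TPM in WT pools (a log2 fold change of 1.17, limma adjusted p = 0.0470). The summed endothelial level was 325 and 373 TPM in *Shh*-/- pools and 229 and 220 TPM in WT pools. Of 4 megakaryocyte and platelet genes 3 were tested (median log2 fold change 0.04, none passing), and of 12 markers of other leukocytes 2 were, *Mpo* and *Prtn3*, neither passing. *Elane*, *Ctsg*, *Cpa3* and *Cd3e* were listed at 0 in every pool. The part of these cells in the values of the macrophage genes was not tested.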

How the data were processed

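RNA-seq of 4 larynx pools was analysed. Per the labels and the study's methods, the authors made stranded poly(A) libraries, sequenced them single-end, aligned reads to mm10 with HISAT2 (2.1.0) and quantified genes with StringTie (1.3.6), versions as in the submitters' processing notes. The deposited tables give coverage, FPKM (coverage scaled by aligned bases) and TPM (FPKM scaled to a common sum). The authors' TPM values were summed per gene ID. Genes averaging 1 TPM or more were compared as log2(TPM + 1) with limma 3.58.1 in R 4.3.3 (lmFit, eBayes with trend, no covariates, *Shh*-/- minus WT, Benjamini-Hochberg threshold 0.05). This scale understates changes of low genes. Exact permutation of 2 against 2 pools cannot give p below 0.33 and was not used. Aligned reads were derived from the ratio of coverage to FPKM at 75 nt per read, a length inferred and not stated. TPM keeps no counts, so the spread between pools gives the precision.

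Members and lists were chosen with earlier results of these data known. All members are named, and genes of the lists may be named. Transcript lengths, GC content and transcript numbers came from GENCODE M21, promoters from RefSeq. Alternatives were another pseudocount, other filters, scalings and eBayes options, FPKM, a correction for length and GC content, and leaving out each pool. The scripts were tested on simulated data. Lists of foregut epithelium, mesenchyme, neuron, muscle, neural crest and HH genes served to check the tissue and are summarised in the closing section. Some genes of the lists are counted but not reported here by name. Imaging data were not analysed here.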

Additional observations from a re-analysis of the deposited data

How the results depend on the processing

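No paired analysis was possible because the pools of the 2 groups share no replicate numbers. None of the 10 macrophage genes passed an adjusted p of 0.05, or of 0.10, in any alternative that kept all 4 pools and could be fitted. In these alternatives 0 of the 10 had an unadjusted limma p under 0.05, a level reached by 24.8% of all tested genes in the main fit. Among these alternatives the lowest limma adjusted p was 0.225 (*Lyz2* with eBayes without trend). A filter at a mean TPM of 5 left none of the 10 to test. The log2 fold change of *Csf1r* turned negative with a pseudocount of 0.1 (-2.2e-05), quantile normalization (-0.10), median centring (-0.13), TPM without haemoglobin genes (-0.0024), FPKM (-0.017) and the correction for transcript length and GC content (-0.34). *Cx3cr1* turned negative with quantile normalization (-0.0025), median centring (-0.0300) and that correction (-0.12), and *Fcer1g* with quantile normalization (-0.0444) and median centring (-0.0619). With 1 pool left out the ranges were -0.0663 to 0.0668 for *Csf1r*, -0.18 to 0.38 for *Cx3cr1*, -0.38 to 0.51 for *Fcer1g*, -0.66 to 0.28 for *C1qa* and -0.23 to 1.48 for *Aif1*. The cause of these reversals was not tested. The log2 ratio of summed TPM, 0.39, was 0.36 with FPKM and 0.39 without haemoglobin genes. With 1 pool left out it was 0.18 (without WT pool 4), 0.24 (without *Shh*-/- pool 1), 0.53 (without *Shh*-/- pool 2) and 0.64 (without WT pool 6), beside a spread between pools of 0.27. The correction for length and GC content gave 0.29 for *C1qb*, 0.14 for *C1qc* and -0.46 for *C1qa*, and a pseudocount of 0.1 gave 0.76 for *Mrc1* and 1.95 for *Aif1*.

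Over all tested genes, 123 passed, against 69 with a pseudocount of 0.1, 0 with no filter on TPM (5011 at an unadjusted p under 0.05), 858 at an adjusted p under 0.10 and 0 to 16 with 1 pool left out, where a lone pool is assumed to vary like the other group. The 1 passing gene of the 7 companion lists became 0 with no filter, 0 after the correction for length and GC content, 0 with any 1 pool left out (0 to 0) and 3 at an adjusted p under 0.10. At these standard errors of 0.21 to 0.60, differences inside the intervals given could not be seen.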

Other observations

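Lists used to check the tissue gave the following values. Of 4 neuron genes 3 passed as higher in *Shh*-/- (*Stmn2*, *Tubb3* and *Elavl3*, median log2 fold change of the 4 genes 2.20), of 4 muscle genes 1 (*Myh7*, median 1.93), of 3 neural crest genes 0 (median 0.47) and of 5 mesenchyme genes 1 (*Twist1*, median 0.97). Of 6 foregut epithelium genes 3 had a positive and 3 a negative log2 fold change (median -0.12), and none passed. *Foxa2* was at 5.34 and 9.12 TPM in *Shh*-/- pools and 29.2 and 39.8 TPM in WT pools (log2 fold change -2.13, limma adjusted p = 0.0602). Of 4 HH pathway genes 2 passed as lower (*Ptch1* and *Hhip*, median -2.30). Over all tested genes, 0.56% passed as higher in *Shh*-/- and 0.165% as lower.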
